A study of Mus musculus with 2 samples.

Results

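Pyruvate entry and the citric acid cycle were followed through 35 genes in the mouse heart, listed by symbol with no threshold on their values. All 35 were found by symbol among the 55536 genes of the deposited tables. They cover the mitochondrial pyruvate carrier, the pyruvate dehydrogenase complex with its kinases and phosphatases, pyruvate carboxylase, the cycle from citrate synthase to malate dehydrogenase, and the aspartate aminotransferases. The tissue was heart from female mice of the hybrid strain B6CASTF1/J, 25 days old, and its total RNA was sequenced and quantified against the reference mouse genome. There is 1 group of 2 libraries, replicates 1 and 2, for which 300 ng of RNA went into each and ERCC transcripts served as spike-ins. No treatment, genotype or time was compared, so the values describe this tissue at this age and the difference between 2 libraries. The labels call the libraries biological replicates and give them separate animal numbers but a shared donor label. They are taken here as 2 animals, and each SD rests on that.

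The heart draws most of its energy from oxidation in mitochondria. Pyruvate made from glucose or lactate crosses the inner membrane through a carrier of Mpc1 and Mpc2, and the pyruvate dehydrogenase complex turns it into acetyl-CoA. Kinases of the Pdk family phosphorylate the complex and switch it off, and the Pdp phosphatases switch it on again, which lets the heart choose between glucose and fatty acids. Acetyl-CoA then enters the citric acid cycle, whose dehydrogenases supply electrons to the respiratory chain.

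Levels are given in TPM, a measure of transcript abundance that corrects for transcript length and for the size of the library. Values are from the gene tables made by aligning reads to transcripts (alignment-based), unless a second quantification made from the reads (read-based) is named. The depth was 43190646 expected counts for replicate 1 and 42954475 for replicate 2. The 5 cardiomyocyte markers checked were all detected, at summed levels of 23380 and 24147 TPM. Of 5 fast skeletal muscle markers 0 were detected, with summed levels of 0.80 and 0.56 TPM. Among these, Myh4 and Myh1 were at 0 in both libraries. Of 6 liver markers, all 6 were higher in replicate 2, where their summed level was 26.2 TPM against 2.83 TPM in replicate 1.

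The transcript sequences shown first are those on which the choice between forms turns in 3 enzymes of the cycle. They are from the GENCODE M21 transcripts of mm10, read 5′ to 3′ on the plus strand, with 12 bases of the neighbouring exon in lower case. Ogdh codes for the subunit of the 2-oxoglutarate dehydrogenase complex that binds the substrate. Capitals mark the 103-base exon chr11:6316978-6317080 of the leading form Ogdh-201, then the 91-base exon chr11:6316765-6316855 that Ogdh-202 has in its place, and then the 91 and 45 bases in 2 exons that Ogdh-203 has there.
Ogdh-201: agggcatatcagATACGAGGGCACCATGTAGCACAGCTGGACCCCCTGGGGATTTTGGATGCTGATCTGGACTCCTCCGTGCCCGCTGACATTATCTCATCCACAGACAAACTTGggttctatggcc
Ogdh-202: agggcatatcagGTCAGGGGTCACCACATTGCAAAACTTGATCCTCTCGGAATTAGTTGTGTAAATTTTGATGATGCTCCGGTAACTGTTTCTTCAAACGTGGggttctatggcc
Ogdh-203: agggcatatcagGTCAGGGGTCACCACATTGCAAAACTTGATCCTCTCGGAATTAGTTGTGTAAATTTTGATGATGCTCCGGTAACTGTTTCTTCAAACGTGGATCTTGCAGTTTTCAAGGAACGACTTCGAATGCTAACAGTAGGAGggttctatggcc

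Mdh2, the mitochondrial malate dehydrogenase, has a form without the 169-base coding exon chr5:135783305-135783473, which is in capitals below. The full form holds it and has 1014 coding bases, and the form that skips it is annotated with 153 coding bases, as a target of nonsense-mediated decay. Idh3a, the catalytic subunit of the NAD-dependent isocitrate dehydrogenase, has a form with an added 95-base exon. In Idh3a-204 the first 24 bases of that exon, chr9:54592161-54592184 in capitals, are 21 coding bases and a stop codon, and the annotated coding part is 111 bases against 1152 in Idh3a-205.
Idh3a-204: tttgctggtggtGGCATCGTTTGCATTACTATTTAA
Mdh2: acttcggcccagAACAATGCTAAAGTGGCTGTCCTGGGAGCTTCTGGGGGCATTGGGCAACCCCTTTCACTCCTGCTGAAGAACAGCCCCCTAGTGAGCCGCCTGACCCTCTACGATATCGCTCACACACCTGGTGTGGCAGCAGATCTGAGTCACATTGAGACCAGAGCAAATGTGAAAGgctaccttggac

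All 35 genes were detected, that is, at 1 TPM or more in both libraries. Their median level was 257 ± 0.035 TPM (SD, n = 2), and together they held 1.03% of all TPM in each library. The median fell on Idh3a in both libraries, so this SD is not the spread of the set. Read-based, the median was 354 ± 17.5 TPM. A mean level of 100 TPM or more was reached by 26 of the 35, against 5.11% of the 10985 protein-coding genes detected, and 25 of the 35 reached it in both libraries. Of the 35, 34 lay above the median detected protein-coding gene, which was at 8.84 TPM, and Pdk3 lay below it. The highest was Mdh1, the cytosolic malate dehydrogenase, at 1019.6 TPM (replicate 1) and 1047 TPM (replicate 2). Mdh2 came next in both libraries. The order below depended on the library, with Ogdh (649 and 642 TPM) above Idh2 (609.6 and 657 TPM) in replicate 1 and below it in replicate 2.

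**Figure D1:**
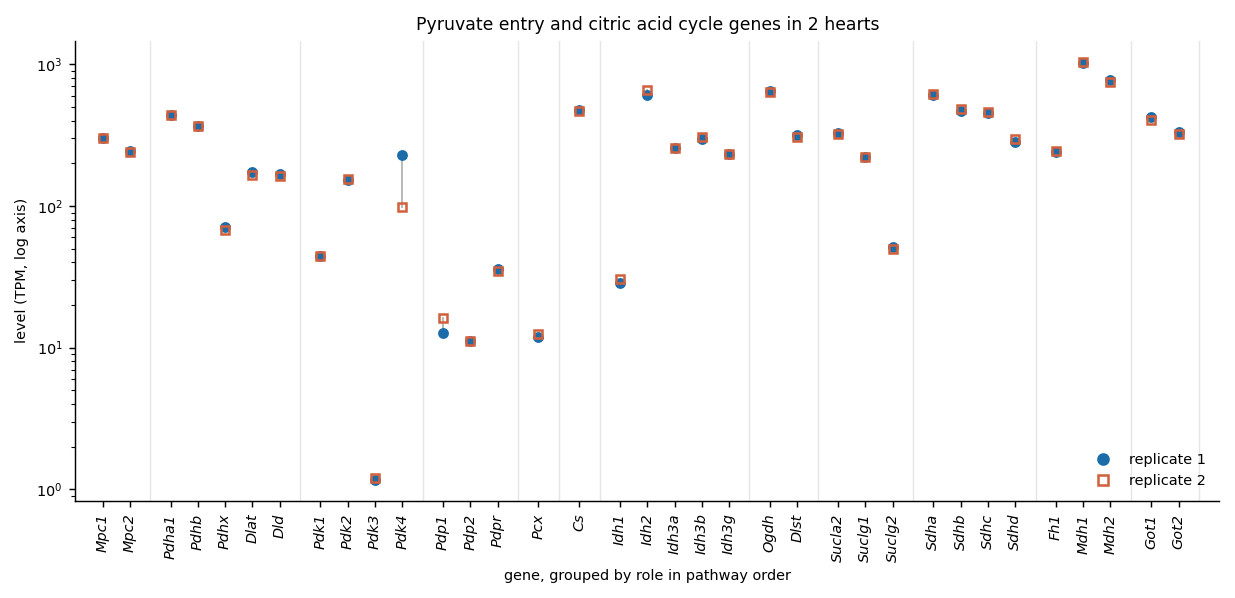
Levels of the 35 genes in TPM on a log axis, grouped by role, with a filled circle for replicate 1 and an open square for replicate 2. The points of a gene mostly coincide; Pdk4 (229 and 98.9 TPM) and Pdp1 (12.6 and 16.2 TPM) stand apart, and Pdk3 is lowest.

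The pyruvate carrier is a heteromer of Mpc1 and Mpc2, and both genes were high. Mpc1 was at 302 TPM (replicate 1) and 300.05 TPM (replicate 2), and Mpc2 at 246 and 240.3 TPM. Within each library Mpc1 was above Mpc2, with a log2 ratio of 0.31 ± 0.020 (n = 2), but the ratio was 0.033 ± 0.016 read-based and 1.01 ± 0.012 with only transcripts annotated as coding.

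The catalytic core of the pyruvate dehydrogenase complex showed uneven transcript levels. The E1 subunits, which decarboxylate pyruvate, led the complex: Pdha1 was at 442 and 441 TPM and Pdhb at 369 and 365 TPM. The E2 subunit Dlat, which passes the acetyl group to coenzyme A, was at 173 and 167 TPM. The E3 subunit Dld, a dehydrogenase shared with other complexes, was at 169 and 164 TPM. Pdhx, which binds E3 to the core, was lowest at 70.8 and 68.1 TPM. Its log2 ratio to Dlat was -1.29 ± 0.0013 alignment-based, -2.36 ± 0.12 read-based and -0.72 with coding transcripts only, so its size depended on the quantification. Between the highest and the lowest of the 5 subunits there was a 6.36 ± 0.16-fold difference, and 7.26 ± 0.38-fold in the read-based values. The order of the E1 subunits was not the same in both quantifications, as the log2 ratio of Pdha1 to Pdhb was 0.27 ± 0.0083 alignment-based and -0.15 ± 0.063 read-based. Pdha2, the testis paralog of Pdha1, had 0 counts in both libraries, which allows up to 3 counts in each.

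Among the kinases, Pdk2 and Pdk4 made up most of the summed level in both libraries. Pdk2, the most widely expressed of the family, was at 153 TPM (replicate 1) and 154 TPM (replicate 2). Pdk1, known for its induction by hypoxia, was at 44.6 and 44.1 TPM, 3.46 ± 0.055-fold below Pdk2. Pdk3 was at 1.16 and 1.19 TPM, from 79 and 80 counts, with a log2 ratio of Pdk1 to Pdk3 of 5.12 ± 0.035 (4.38 with a pseudocount of 1 TPM in place of 0.1). These 3 kinases differed little between the libraries, with a summed level of 199 ± 0.94 TPM. The read-based sum was 268 ± 9.2 TPM.

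Pdk4, the kinase induced by fasting, fatty acids and glucocorticoids, was the member with the largest difference between the libraries. Its level was 229 TPM (replicate 1) and 98.9 TPM (replicate 2), from 18425 and 8358 counts. The read-based levels were 212 and 92.5 TPM. In scaled counts replicate 1 was 2.13-fold higher (95% interval 2.08 to 2.19, counting error only). Pdk4 was above Pdk2 in replicate 1, with a log2 ratio of 0.58, and below it in replicate 2, with a log2 ratio of -0.64. In the read-based values Pdk4 was below Pdk2 in both, as Pdk2 was at 216 and 204.5 TPM.

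The phosphatases that reverse the kinases were an order lower. Pdp1, the catalytic subunit stimulated by calcium, was at 12.6 TPM (replicate 1) and 16.2 TPM (replicate 2), from 1117 and 1433 counts. Pdp2, a second catalytic subunit linked to insulin, was at 11.1 TPM in both. Pdpr, the regulatory subunit of Pdp1, was higher than either catalytic subunit at 35.8 and 34.99 TPM. Pdp1 was 1.32-fold higher in replicate 2 in scaled counts (95% interval 1.22 to 1.43), with separate credibility intervals of TPM in the deposited tables but a ratio below 2.

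The kinase to phosphatase balance, the summed TPM of the 4 kinases over that of Pdp1 and Pdp2, was 18.0 in replicate 1 and 10.9 in replicate 2. On the log2 scale it was 3.804 ± 0.51 (n = 2). The kinase sums were 427 and 299 TPM and the phosphatase sums 23.7 and 27.4 TPM. Pdk4 held 53.5% of the kinase sum in replicate 1 and 33.1% in replicate 2, and Pdk2 held 35.7% and 51.7%. Without Pdk4 the balance was 8.36 and 7.30, so that most of the difference between the libraries lay in that 1 kinase. With Pdpr counted among the phosphatases the log2 balance was 2.55 ± 0.41. Relative to their target, the summed kinases were at 0.966 of the level of Pdha1 in replicate 1 and 0.678 in replicate 2. With 2 libraries an exact sign-flip test cannot go below a p of 0.5, and none was run on the ratios. These are transcript levels, and neither kinase activity nor phosphorylation was measured.

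**Figure D2:**
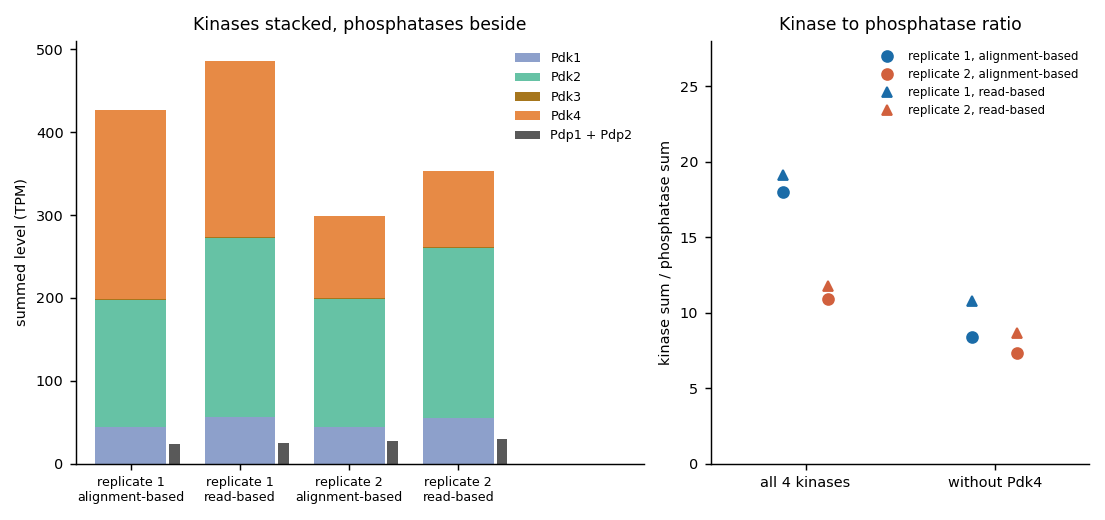
Left, summed levels of the 4 kinases in TPM as stacked bars, with the sum of Pdp1 and Pdp2 beside each, for each replicate and quantification. Right, the ratio of these sums with and without Pdk4, where the gap between the replicates (18.0 against 10.9, alignment-based) narrows to 8.36 against 7.30 once Pdk4 is left out.

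Pyruvate carboxylase, which refills the cycle by making oxaloacetate and is best known from liver, was low in these hearts. Pcx was at 11.9 TPM (replicate 1) and 12.4 TPM (replicate 2). Pdha1, at the other branch of pyruvate use, was 36.3 ± 1.2-fold higher. The log2 ratio of Pcx to Pdha1 was -5.17 ± 0.048, and -4.75 ± 0.026 read-based. Citrate synthase, the entry enzyme of the cycle, was at 474 and 469.7 TPM for Cs, and its testis paralog Csl was at 1.68 and 1.84 TPM.

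The isocitrate dehydrogenases fell into a mitochondrial and a cytosolic class with very different levels. Idh2, the mitochondrial NADP-dependent enzyme, was at 609.6 TPM (replicate 1) and 657 TPM (replicate 2). Idh1, its counterpart in cytosol and peroxisomes, was at 28.5 and 30.5 TPM, 21.4 ± 0.092-fold lower. The 3 subunits of the NAD-dependent enzyme of the cycle lay close together in gene levels, but not with coding transcripts only. Idh3a was at 257 TPM in both libraries, Idh3b, a regulatory subunit, at 297 and 308 TPM, and Idh3g, the other regulatory subunit, at 234 TPM in both. The highest of the 3 was 1.29 ± 0.034-fold above the lowest, and the log2 ratio of Idh2 to Idh3a was 1.30 ± 0.076. With only transcripts annotated as coding, that ratio was 2.18 ± 0.13. The log2 ratio of Idh3a to Idh3b was then -1.11 ± 0.092 in place of -0.24 ± 0.040, and that of Idh3a to Idh3g -0.65 ± 0.043 in place of 0.14 ± 0.0023.

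The 2-oxoglutarate dehydrogenase complex shares its design, and its E3 subunit Dld, with the pyruvate dehydrogenase complex. Its E1 subunit Ogdh was 2.06 ± 0.035-fold above its E2 subunit Dlst, which was at 319 and 308 TPM. Their log2 ratio was 1.04 ± 0.025, against 1.20 ± 0.0033 read-based and 1.58 ± 0.024 with coding transcripts only. Ogdhl, a paralog of Ogdh best known from brain, was at 30.0 and 28.6 TPM. The log2 ratio of Ogdh to Ogdhl was 4.46 ± 0.038, and 5.10 ± 0.017 read-based. Dhtkd1, the related enzyme of lysine breakdown, was at 2.11 and 1.90 TPM.

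Succinate-CoA ligase pairs a shared alpha subunit, Suclg1, with a beta subunit that decides whether ATP or GTP is formed. Sucla2, the ATP-forming beta subunit, was at 328 TPM (replicate 1) and 322 TPM (replicate 2). Suclg2, the GTP-forming one, was at 51.2 and 49.8 TPM, 6.44 ± 0.032-fold lower. Suclg1 was at 223 TPM in both libraries, below the sum of the beta subunits by a log2 ratio of -0.75 ± 0.019.

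Succinate dehydrogenase is both an enzyme of the cycle and complex II of the respiratory chain. The flavoprotein subunit Sdha was at 609 and 618 TPM and the iron-sulfur subunit Sdhb at 467 and 488 TPM. The membrane anchors Sdhc and Sdhd were at 456 and 459.6 TPM and at 285 and 297 TPM. The 4 subunits spanned 2.11 ± 0.041-fold, but their order differed between the quantifications. The log2 ratio of Sdha to Sdhb was 0.36 ± 0.031 alignment-based, -0.32 ± 0.039 read-based and -0.11 ± 0.046 with coding transcripts alone. That of Sdhc to Sdhd was 0.65 ± 0.036 alignment-based and -0.020 ± 0.024 read-based.

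Fumarase, encoded by Fh1, was at 240.5 TPM (replicate 1) and 245 TPM (replicate 2). Mdh2, which closes the cycle in the matrix, was at 773 and 756 TPM, with a log2 ratio to cytosolic Mdh1 of -0.43 ± 0.050. That ratio was -1.27 ± 0.0055 with coding transcripts only and -0.077 ± 0.20 read-based, where Mdh2 was above Mdh1 in replicate 1 (912 against 874 TPM) and below it in replicate 2 (875 against 1016 TPM). With the aspartate aminotransferases the malate dehydrogenases form the shuttle that carries reducing equivalents into mitochondria. Cytosolic Got1 was at 423 and 408 TPM and mitochondrial Got2 at 334.5 and 324 TPM, with a log2 ratio of Got2 to Got1 of -0.34 ± 0.0045 (-0.23 ± 0.018 read-based and -0.086 ± 0.036 with coding transcripts only). The testis-associated paralogs Mdh1b and Got1l1 had 0 counts in both libraries.

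The 2 quantifications of the same reads did not give the same scale. The read-based level was higher for 29 of the 35 genes, with a median ratio of 1.22, close to the 1.17 of all detected protein-coding genes. The range ran from 0.679 for Sdhc to 2.08 for Dlat. Ogdh, at 1133 TPM read-based, then stood above Mdh1, at 945 TPM. Ratios between genes that are smaller than these shifts depend on the quantification. For 5 genes (Mpc1, Pdhb, Cs, Suclg2 and Got2) the expected counts were not whole numbers, which shows that some of their reads were shared with other entries.

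**Figure D3:**
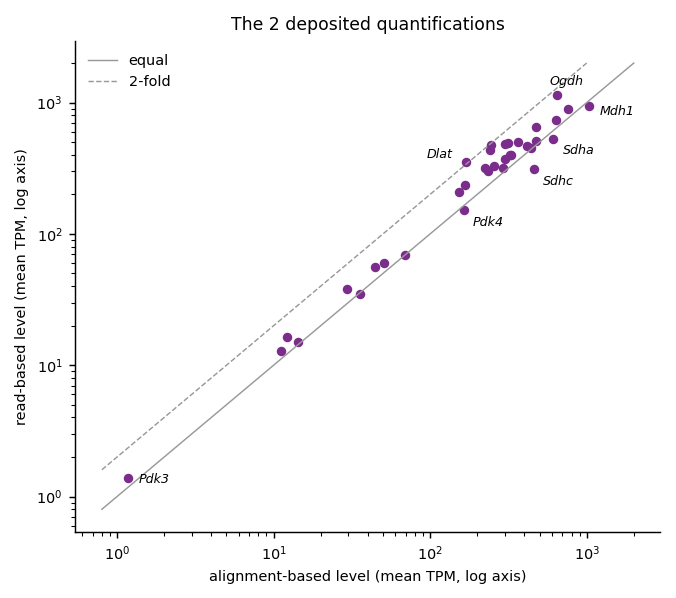
Mean level of each of the 35 genes over both libraries, alignment-based on the x axis and read-based on the y axis, in TPM on log axes, with lines of equality and of a 2-fold excess. Most points lie above equality, Dlat (2.08-fold) reaches the upper line, and Sdhc (0.679-fold) lies below equality.

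Gene by gene, the split of scaled counts between the libraries was tested by an exact binomial test, two-sided, which covers counting error only and tests libraries, not conditions. A gene was counted as differing at an adjusted p under 0.05, a ratio of 2 or more and separate credibility intervals. Of the 35 genes, 1 was counted as differing, Pdk4, against 0.802% of the 15839 genes tested, with 0.505% of them higher in replicate 1, as Pdk4 was, and 0.297% higher in replicate 2. An adjusted p under 0.05 at any ratio was reached by 29 of the 35, against 20.6% of the genes tested. Of these, 28 were higher in replicate 2, against 10.3% of the genes tested. The counts behind them were large, with a median of 13219.5 per gene, so that small ratios pass. The median absolute log2 ratio was 0.088 for the 35 and 0.083 for the 4477 tested genes whose mean count was 1000 or more, where 34 of the 35 lie.

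The sign of these small ratios depended on how the libraries were scaled. In counts scaled by TMM factors, 34 of the 35 were higher in replicate 2 (median log2 ratio 0.086). With size factors of DESeq2 34 were, with total counts 33, and in the read-based counts 33. With scaling to the spike-ins, however, 11 were (median -0.021). The median of all genes tested moved likewise, from 0.0088 with TMM to -0.099 with the spike-ins. The median of the 35 was above that of all genes under both scalings. This had to be so, because a scaling shifts the log2 ratios of all genes equally. In TPM 15 of the 35 were higher in replicate 2 and 20 were lower, and no gene but Pdk4 and Pdp1 differed by more than 1.08-fold. In read-based TPM 24 were higher in replicate 2 and 11 were lower. Pdk4 was higher in replicate 1 under all 4 scalings and in the read-based counts, with log2 ratios of replicate 2 over replicate 1 between -1.20 and -1.07.

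**Figure D4:**
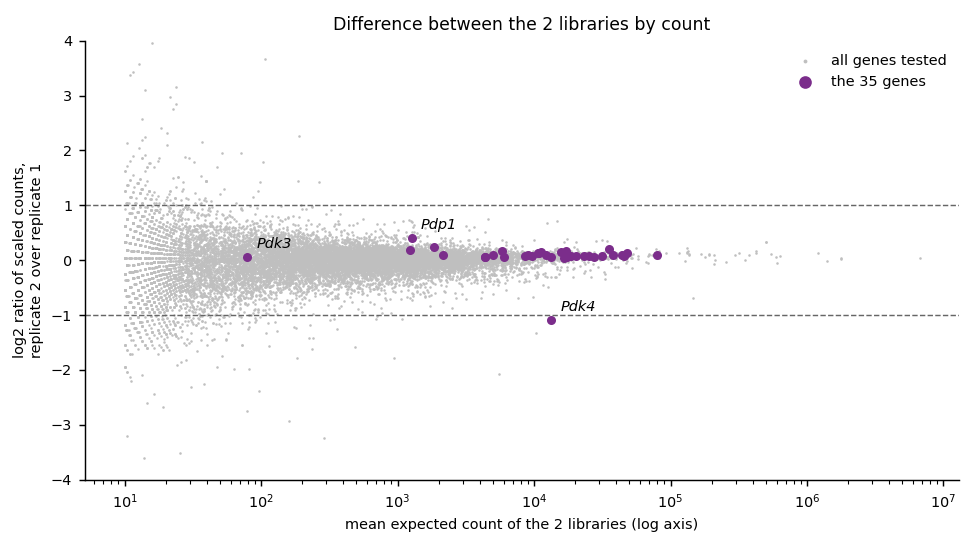
Log2 ratio of scaled counts, replicate 2 over replicate 1, against the mean expected count of each gene on a log axis, with all genes tested in grey and the 35 genes in purple; dashed lines mark a ratio of 2. Pdk4 alone of the 35 lies beyond a dashed line, at -1.09, and 58 genes lie outside the drawn range.

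Other genes moved with Pdk4 between the libraries. Of 10 genes known to respond to glucocorticoids or fasting, 10 were higher in replicate 1, and the median of their log2 ratios was -0.60. That list was drawn up with results of these data known, so its direction is no independent evidence. Counted as differing among them were Zbtb16, a transcription factor (64.4 and 14.9 TPM), Fkbp5, a chaperone of steroid receptors (15.8 and 3.94 TPM), and Mt2, a metallothionein (44.2 and 16.1 TPM). Summed levels of cell type markers were also unequal, to unlike degrees. Endothelial markers were at 176 and 147 TPM, smooth muscle markers at 180 and 131 TPM, and fibroblast markers at 287 and 252 TPM. Macrophage markers were at 20.7 and 17.9 TPM and erythroid markers at 7406 and 7126 TPM. Higher in replicate 2 were markers of liver (2.83 and 26.2 TPM) and white adipocytes (7.44 and 9.74 TPM). The cardiomyocyte markers given above were also higher in replicate 2. Brown adipocyte markers were mixed, with sums of 21.4 and 22.5 TPM. Of the 3 tested, 2 were higher in replicate 1 and 1 in replicate 2 in scaled counts. The part of these in the difference of Pdk4 was not tested. In bulk tissue, fewer cells of a type and less RNA per cell cannot be told apart.

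The promoter of Pdk4 is shown because Pdk4 is the member that differed. Pdk4 lies at chr6:5483351-5496309 on the minus strand of mm10, and the 219 bases before its start, chr6:5496310-5496528, are given from the RefSeq promoter table (GRCm38.p6) in the direction of transcription. Capitals mark a CCAAT box on the opposite strand.
Pdk4: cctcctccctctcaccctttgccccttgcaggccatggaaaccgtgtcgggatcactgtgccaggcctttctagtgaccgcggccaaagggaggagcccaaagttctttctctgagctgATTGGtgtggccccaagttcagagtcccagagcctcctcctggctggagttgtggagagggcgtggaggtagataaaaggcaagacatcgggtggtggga

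Promoter windows, 250 bases before to 50 bases after a start, were found for 32 of the 35 genes. Idh3a, Pdp1 and Sdhc had no entry. Each motif was searched on both strands, and matches to different motifs could overlap. CCAAT was in 65.6% of the 32 windows and in 41.1% of the windows of 27025 genes. The motif of NRF1, a regulator of nuclear genes for mitochondria, was searched as GCGCA and GCGC with 1 base between them, and was in 12.5% (Dld, Sucla2, Sdha and Sdhd), against 5.19% of all. TATAAA was in 1 window, that of Got2, and in 15.7% of all. The motif TNAAGGTCA of estrogen-related receptors was in 1 window, that of Sdhd, and in 1.43% of all. The glucocorticoid receptor motif, AGAACA and TGTTCT with 3 bases between them, was in 0 windows and in 0.011% of all. These are matches of letters, and no factor's binding was measured.

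The layout of the starts was described next. A protein-coding gene on the opposite strand started within 1000 bases upstream of 9 of the 35 genes (25.7%), against 6.76% of all 22028 protein-coding genes and 10.5% of those detected. The upstream partner was detected for Mpc2 (Dcaf6), Pdhx (Apip), Idh1 (Pikfyve), Idh3g (Ssr4), Sdha (Ccdc127) and Sdhd (Timm8b). Among the others, it was below 1 TPM for Dlst (Prox2) and Mdh2 (Styxl1). Timm8b, an import chaperone of mitochondria, was at 105 TPM, and its start lies 98 bases from that of Sdhd.
The stretch chr9:50603805-50603909, which holds the bases between those starts and the first 8 bases of Sdhd, and the 70 bases before Sdha, chr13:74350281-74350350, are given from the same table on the minus strand. They show divergent promoters with a motif in capitals, that of estrogen-related receptors on the opposite strand across the start of Sdhd and that of NRF1 before Sdha.
Sdhd: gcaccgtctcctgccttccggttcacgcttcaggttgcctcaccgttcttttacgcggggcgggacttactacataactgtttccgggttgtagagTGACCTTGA
Sdha: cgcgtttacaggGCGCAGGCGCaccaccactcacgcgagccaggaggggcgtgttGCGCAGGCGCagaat

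The 35 genes lie on 16 chromosomes, with Pdha1, Pdk3 and Idh3g on X. The nearest members were Dlat and Sdhd, 30821 bases apart on chromosome 9. Among those that overlap a detected gene on the opposite strand were Pcx (Lrfn4), Idh3b (Nop56) and Mdh1 (Wdpcp). Whether counting used the strand is not given in the sources used here, so reads of such overlaps may not be told apart.

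Transcript forms were described for the 185 annotated transcripts of the 35 genes, by each transcript's percentage of its gene. The leading transcript was the same in both libraries for 33 of the 35, and for 31 of the 33 genes with several transcripts, against 89.5% of 10333 detected genes with several. The exceptions were Pcx and Pdp1, both among the lowest of the 35, where several coding forms had similar shares. In replicate 1 the alignment-based leading transcript was annotated as coding in all 35 genes. Read-based, the leading transcripts of Mpc2, Fh1 and Idh3a were not annotated as coding in either library. Coding transcripts held a median of 97.2% of a gene (98.6% read-based). For 28 of the 35 both quantifications named the same leading transcript in both libraries.

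In Ogdh the 103-base exon shown above was used nearly alone. Ogdh-201 held 60.5% of the gene in replicate 1 and 63.5% in replicate 2, and Ogdh-204, with the same coding part, 25.7% and 24.3%. Ogdh-202 and Ogdh-203, with the other exons, held 1.16% or less in either library. Of the expected counts of these 4 forms, 98.8% ± 0.23 belonged to the forms with the 103-base exon, and 99.1% ± 0.011 of the read-based counts. The coding parts are 3069, 3057 and 3102 bases long in Ogdh-201, Ogdh-202 and Ogdh-203. As background, forms of this enzyme that differ here have been described to differ in their response to calcium.

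For Idh3a and Mdh2 a form annotated for nonsense-mediated decay held a large share. Idh3a-204, with the added exon, held 43.4% and 45.2% of the gene, and 59.6% and 64.5% read-based, where it was the leading form. The coding Idh3a-205 held 55.2% and 52.4%, and 40.1% and 35.4% read-based. The Mdh2 form without the 169-base exon held 44.8% and 42.6%, but 17.6% and 18.4% read-based. The libraries thus lay closer to each other than the quantifications did.

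Short annotated transcripts weighed heavily in some gene levels. Sdhc-203, of 298 bases, held 41.7% and 39.5% of Sdhc in TPM from 12.04% and 11.2% of its counts, and 0.161% and 0% read-based. In Pdk4, a retained-intron transcript of 412 bases held 25.0% and 28.9% of the gene in TPM from 3.28% and 3.73% of its counts. For Dlat, the full-length Dlat-201 held 92.5% and 92.3% of the counts, but 67.3% and 67.0% of TPM and 33.0% and 35.3% read-based. In Fh1, a transcript of 599 bases annotated for nonsense-mediated decay led read-based at 38.2% and 36.2%, against 16.6% and 16.4% alignment-based. The level per length of these genes thus depends on the few reads assigned to short forms.

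**Figure D5:**
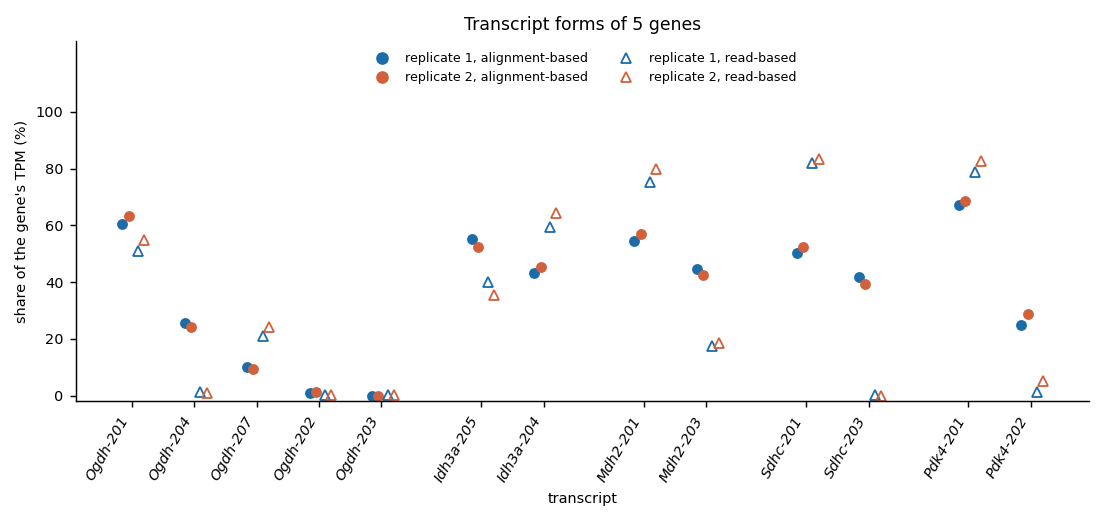
Share of the gene's TPM, in percent, of selected transcripts of Ogdh, Idh3a, Mdh2, Sdhc and Pdk4, with circles alignment-based, triangles read-based, blue replicate 1 and orange replicate 2. Replicates lie close together, while the quantifications part for Idh3a-204 (43.4% and 45.2% against 59.6% and 64.5%) and Sdhc-203; Ogdh-202 and Ogdh-203 lie near 0.

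Genes around the pathway were taken from 6 related lists with 54 genes, of which 48 were detected and 50 tested. By the exact binomial test, 0 were counted as differing between the libraries, and 22 had an adjusted p under 0.05 at any ratio (28 at an unadjusted p under 0.05). That is 22 of 50 against 20.6% of all genes tested. Of the 22, 20 were higher in replicate 2 and 2 in replicate 1 with TMM scaling; with scaling to the spike-ins, an alternative added after seeing the data, 10 passed, 6 higher in replicate 2 and 4 in replicate 1. Aco1, a cytosolic enzyme that also regulates iron metabolism, was at 12.6 TPM in both libraries. Of the genes that supply substrate, Ldhb, the heart form of lactate dehydrogenase, was highest at 1026 and 1079 TPM, followed by Bsg, the chaperone of lactate carriers, at 475 and 458 TPM. Of the shuttle and refilling genes, the oxoglutarate carrier Slc25a11 was at 216 and 222 TPM and the aspartate-glutamate carrier Slc25a12 at 107 and 108 TPM.

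Genes that build the cofactors and complexes were also measured. Of the lipoylation and iron-sulfur genes, Isca1 was highest at 85.3 and 84.5 TPM and Glrx5 followed at 36.9 and 40.5 TPM. Of the assembly factors of succinate dehydrogenase, Sdhaf4 was at 34.7 and 33.1 TPM and Sdhaf2 at 27.8 and 28.4 TPM. Of the genes of 2-hydroxyglutarate metabolism, Adhfe1 was highest, at 35.3 and 38.0 TPM.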

How the data were processed

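Per the deposited listings, reads were quantified against mm10 with GENCODE M21; neither tools nor versions are stated, as far as the sources used here go. Expected counts and estimated counts were deposited as reads assigned to genes or transcripts, not normalized, per the file headers. The authors computed TPM, which sums to 1000000 over all entries and the spike-ins in a library. In the deposited score columns stand lower and upper credibility bounds for TPM, at a level the headers do not give. The deposited percent column gives each transcript's share of its gene, per the file headers.

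The 35 genes, the related lists and the tests were chosen with earlier results of these data known. Named outside the 35 were the 2 highest genes of each related list, all genes of the paralog list, and genes counted as differing; some of these are not reported here. The 96 spike-in entries (0.518% and 0.544% of counts) and 26249 tRNA and phiX entries were left out. Detection needed 1 TPM in both libraries, and log2 ratios used TPM + 0.1. Read-based transcripts were summed to genes. Rounded expected counts, for genes whose mean was 10 or more, were tested for their split between the libraries (exact binomial test, two-sided) with TMM factors of edgeR 4.0.16 (R 4.3.3) and Benjamini-Hochberg adjustment; intervals are exact at 95%. Tested on simulated data for this comparison with counting noise alone (15862 genes), it called 191 of 200 genes changed 3-fold and 1 of 15662 unchanged. At 1.5-fold, below the minimum ratio of 2, it called 1 of 200 (15848 genes). The simulated data had no credibility intervals, so these calls rest on adjusted p and ratio alone. They are not rates of the full rule, which also needs separate intervals. Other steps used Python 3.11.15, scipy 1.17.1, pandas 2.3.3 and matplotlib 3.10.9, and size factors of DESeq2 1.42.0 were an alternative. The reads come from a hybrid strain, and the effect of its alleles on alignment was not tested.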

Additional observations from a re-analysis of the deposited data

How the results depend on the processing

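No paired analysis was possible because the study has a single group of 2 libraries. The median level of the 35 genes was 354 TPM read-based, 252 TPM as posterior mean and 659 TPM when rescaled to protein-coding nuclear genes, against 257 TPM (256.79 to 256.84 TPM with either replicate left out). Of 22 ratios, the first-named gene was higher in 15, and in 12 to 15 with other values or a pseudocount of 1 TPM, and 15 to 16 with a replicate left out. The direction was reversed for the log2 ratios of Pdha1 to Pdhb (-0.15), Sdha to Sdhb (-0.32) and Sdhc to Sdhd (-0.020) in read-based TPM, and for Idh3a to Idh3g (-0.65) and Sdha to Sdhb (-0.11) with coding transcripts only. The cause was not tested. The log2 kinase to phosphatase balance was 3.44 to 4.16 with a replicate left out, 2.55 with Pdpr counted as a phosphatase and, in an alternative chosen after seeing the data, 2.96 without Pdk4. The other 4 alternatives gave 3.51 to 3.90. The number of the 35 counted as differing was 1 under each alternative but 1, and 7 without the minimum ratio, which counts smaller differences by construction. Over all genes, 80 of the 127 counted as differing were higher in replicate 1, 116 of 162 with spike-in scaling, which moved the median log2 ratio of all genes by -0.11. Without separate intervals 289 genes were counted, with a mean count of 100 or more 25, and in the read-based counts, which have no intervals, 336. Leading transcripts agreed between the libraries for 34 of the 35 genes read-based; leaving out a replicate gives no value for a comparison of both. Depth limits only Pdk3, with 79 and 80 counts, where the ratio of replicate 2 to replicate 1 has a 95% interval of 0.757 to 1.45.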
